A study of Mus musculus with 7 samples.

Results

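The regions described are stretches of open chromatin that were detected in every library of the study and that lie far from any protein-coding gene. Peaks of all 7 libraries on chromosomes 1 to 19 and X were merged wherever they overlapped by 1 bp or more, which gave 103809 regions. Members were selected on having a peak in all 7 libraries, on a width under 2000 bp, and on having no protein-coding gene within 50 kb of the summit of the region's highest-ranked peak. Of the 103809 regions, 50324 had a peak in every library, and 49094 of these were narrower than 2000 bp. The 4458 members were 4.29% of all merged regions and 9.08% of the constant regions under 2000 bp. Together they covered 3.91 Mb.

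Open chromatin was mapped by Omni-ATAC-seq, in which the transposase Tn5 cuts accessible DNA and attaches sequencing adapters to it. The cells were Lgr5+ intestinal stem cells sorted from female B6-GFP-Lgr5 recipients of 8 to 12 weeks, which carry a GFP reporter of Lgr5. The Syn group (3 libraries) had received syngeneic marrow, and the Allo group (4 libraries) had received marrow from BALB/c donors, a mismatch that can lead to graft-versus-host disease. All recipients had been lethally irradiated, cells were taken 7 days after transplantation, and each library held 50000 cells pooled from 3 to 4 mice. Irradiation is thus common to both groups, no unirradiated group was analysed here, and the spread between mice within a pool is not seen.

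Open regions far from genes are mostly candidate distal regulatory elements such as enhancers, which act on a promoter through looping of the DNA and can do so over long distances. Genes that encode regulators of development are often surrounded by long stretches without other genes, called gene deserts, in which several such elements stand. Distal elements are known for being more cell type specific than promoters. Many deserts also hold long non-coding RNA genes (lncRNAs), whose own promoters are open regions too.

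The deposited lists held 71925 to 76438 peaks in the Syn libraries and 62977 to 88861 in the Allo libraries. The number of reads is unknown. A background pileup solved from the deposited values was 4.65 to 5.34 in Syn and 3.05 to 4.46 in Allo, with no overlap between the groups. Allo 3 and Allo 4 had the lowest background and the most peaks, and their peaks carry another naming scheme than the other 5 lists. A peak within 1 kb of a gene end was present in each of the 7 libraries at 6 of 7 stem cell markers (Axin2 lacked one) and at 5 of 5 epithelial markers. The same held for 3 of the 7 leukocyte markers reported here (Cd4, Itgam and Cd79a), while Ptprc, Cd3e, Cd3g and Cd8a had none in any library. Of the stromal and endothelial markers 1 of 5 (Col1a1) had one, and Pecam1, Cdh5, Col1a2 and Pdgfra had none.

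Sequence was at hand for those members that stand at an annotated start of a lncRNA gene. RefSeq promoter windows of GRCm38.p6, the same build as mm10, run from 250 bases before to 50 bases after an annotated start. That start need not be the outer end of the gene. The window of Junos lies inside the gene's body, which runs from 95052317 to 95169036 on chromosome 4. The summits of 89 members fell in 93 such windows of 92 genes, all of them lncRNAs. They are shown because they include some of the strongest regions of the set. Each of the 89 summits lies no more than 250 bases before or 50 bases after an annotated start. Members with a summit farther past a start were not counted. The 6 windows printed below, each 300 bases and 5′ to 3′ on the strand of the gene, are BC002059 (chr17:16951286-16951585, plus strand), Gm41301 (chr15:37135692-37135991, minus), Firre (chrX:50635272-50635571, minus), Gm34507 (chr17:4908072-4908371, plus), Dubr (chr16:50732724-50733023, minus) and Junos (chr4:95143815-95144114, plus). Capitals mark matches to the short motifs searched.
BC002059: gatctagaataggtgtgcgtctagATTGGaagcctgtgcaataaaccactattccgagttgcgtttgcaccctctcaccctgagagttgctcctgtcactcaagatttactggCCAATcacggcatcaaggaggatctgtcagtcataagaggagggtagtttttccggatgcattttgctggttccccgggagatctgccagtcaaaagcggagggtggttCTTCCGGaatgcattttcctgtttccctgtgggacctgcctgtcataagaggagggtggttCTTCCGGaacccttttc
Gm41301: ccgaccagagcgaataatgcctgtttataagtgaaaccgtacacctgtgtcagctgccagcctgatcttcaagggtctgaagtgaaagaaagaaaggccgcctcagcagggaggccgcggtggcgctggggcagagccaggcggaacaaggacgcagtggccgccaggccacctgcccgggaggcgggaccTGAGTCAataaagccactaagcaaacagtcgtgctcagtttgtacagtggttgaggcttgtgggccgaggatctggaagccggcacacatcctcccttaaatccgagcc
Firre: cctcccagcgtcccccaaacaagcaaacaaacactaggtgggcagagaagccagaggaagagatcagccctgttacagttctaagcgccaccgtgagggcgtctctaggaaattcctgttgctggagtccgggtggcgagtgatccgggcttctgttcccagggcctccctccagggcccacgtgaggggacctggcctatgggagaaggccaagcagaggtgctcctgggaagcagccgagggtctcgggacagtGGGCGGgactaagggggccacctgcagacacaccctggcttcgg
Gm34507: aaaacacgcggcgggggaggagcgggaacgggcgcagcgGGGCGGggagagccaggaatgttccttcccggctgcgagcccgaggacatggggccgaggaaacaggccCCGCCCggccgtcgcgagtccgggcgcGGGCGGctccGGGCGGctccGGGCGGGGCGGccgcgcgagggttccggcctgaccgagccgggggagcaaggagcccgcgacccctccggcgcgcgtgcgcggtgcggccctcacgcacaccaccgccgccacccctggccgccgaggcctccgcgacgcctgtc
Dubr: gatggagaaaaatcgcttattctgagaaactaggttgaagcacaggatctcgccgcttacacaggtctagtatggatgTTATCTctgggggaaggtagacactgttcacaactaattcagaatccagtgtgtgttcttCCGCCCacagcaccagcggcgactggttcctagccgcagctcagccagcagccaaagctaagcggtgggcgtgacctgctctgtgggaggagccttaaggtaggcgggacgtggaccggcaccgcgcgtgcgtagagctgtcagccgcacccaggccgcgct
Junos: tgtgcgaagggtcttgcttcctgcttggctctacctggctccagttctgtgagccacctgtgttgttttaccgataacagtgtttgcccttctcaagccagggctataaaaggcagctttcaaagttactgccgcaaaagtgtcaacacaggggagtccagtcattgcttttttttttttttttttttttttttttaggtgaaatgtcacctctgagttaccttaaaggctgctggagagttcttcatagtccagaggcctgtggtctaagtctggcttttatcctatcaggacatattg

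Short motifs of 10 factor families were searched on both strands. In the printed windows matches shared a base only in that of Gm34507, where 1 pair of its 6 GC boxes overlaps. The window of BC002059 held 2 ETS matches and 2 CCAAT matches, 1 in each orientation. That of Gm41301 held 1 AP-1 match, that of Firre 1 GC box, and that of Dubr 1 GATA match and 1 GC box. The window of Junos held none of the motifs. GC content ran from 44.0% for Junos through 50.7% for BC002059 to 79.3% for Gm34507, which held 49 CpG pairs.

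Across the 93 windows with a member's summit, a GC box, spelled GGGCGG, was found in 33.3%, beside 16.2% of the 11482 other lncRNA windows and 46.7% of the 21045 protein-coding windows of the same length. The GATA motif, searched as AGATAA, was in 19.4%, beside 13.9% and 9.68%. The letters of AP-1, the factor formed by Jun and Fos proteins, were searched as TGANTCA and found in 11.8%, beside 9.29% and 7.04%. The CCAAT box, searched by the letters of its name in either orientation, was in 34.4%, beside 36.0% and 38.5%. For ETS factors the letters CCGGAAG were in 4.30%, beside 3.89% and 11.7%. For TCF/LEF, the DNA-binding partners of beta-catenin, the letters CTTTGAT stood in 5.38%, beside 4.67% and 3.25%. For CDX, the hindgut homeobox factors, TTTATGG was in 3.23%, beside 3.63% and 2.28%. The cAMP response element, searched as TGACGTCA, was in 2.15%, beside 0.967% and 2.26%. For HNF4, a nuclear receptor of gut and liver, CAAAGTCCA was in 0 of the 93 windows, beside 0.523% of the other lncRNA windows and 0.456% of the protein-coding ones. For NRF1 the letters GCGCATGC were also in 0, beside 1.22% and 3.54%. The mean GC content of the 93 windows (53.1%) lay between that of the other lncRNA windows (49.3%) and that of the protein-coding ones (56.4%), and the median number of CpG pairs was 6, beside 4 and 13. These shares describe letters in the windows and were not tested.

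Members were of moderate width and of less than average strength among constant regions. Their median width was 831 bp (quartiles 619 and 1078 bp, range 251 to 1997 bp), beside 880 bp for the 44636 other constant regions under 2000 bp. Of the members 549 were narrower than 500 bp, 2455 measured from 500 to under 1000 bp and 1454 were 1000 bp or wider. Strength was expressed as a rank percentile, the rank of the region's strongest peak by −log10 q among the 50324 constant regions of a library, where 100 is the strongest. The median percentile of the members was 43.3, 42.6 and 43.2 in the Syn libraries and 39.9, 41.4, 38.9 and 38.3 in the Allo libraries. The other constant regions under 2000 bp had medians of 49.7 to 50.3. Each library thus ranked the members below the rest, and each Allo library ranked them lower than each Syn library did.

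**Figure D1:**
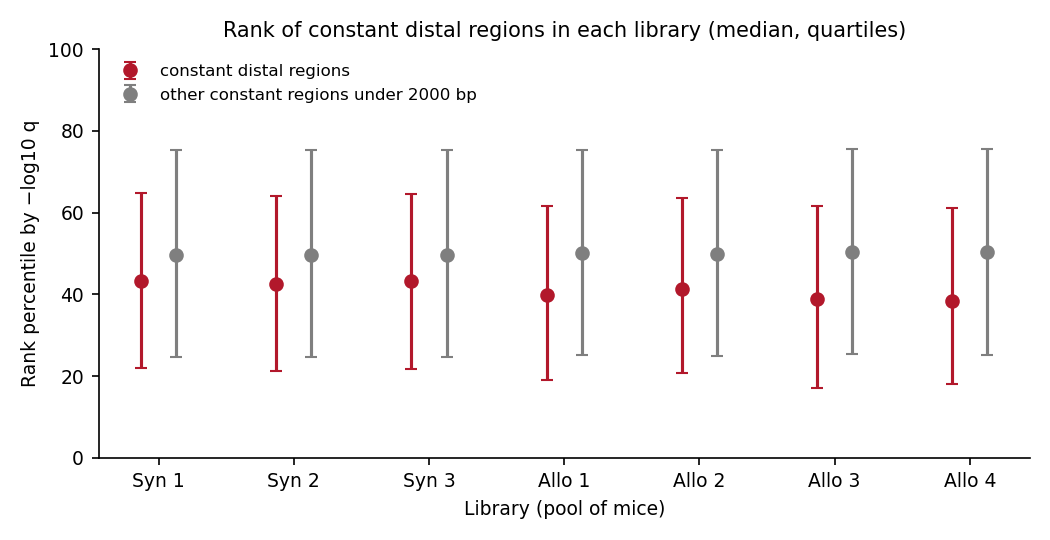
Rank percentile by −log10 q (y axis) in each of the 7 libraries (x axis) for the constant distal regions (red) and the other constant regions under 2000 bp (grey); points are medians over regions and bars run from the lower to the upper quartile. The red medians lie at 42.6 to 43.3 in the Syn libraries and 38.3 to 41.4 in the Allo libraries, all below the grey ones.

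The top of the scale was thinly filled. A mean percentile over 75 was reached by 488 members (10.9%), beside 24.4% of the others, and one over 90 by 76 members (1.70%), beside 10.001%. Below 25 lay 1325 members (29.7%), beside 24.1%. In all 7 libraries at once, 267 members were over percentile 75 and 387 under 25. These ranks share column 9 with the rule, which used it to place each region, and are given as a description.

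The order depended on the measure of strength. Ranked by fold over background, the members had a mean library median of 51.4, beside 49.99 for the others, and were higher than the others in 6 of 7 libraries. The exception was Allo 1, at 47.4. The median fold of the members was 5.90, 5.84 and 6.40 in Syn and 5.34, 6.22, 7.47 and 7.22 in Allo, and that of the others 5.79, 5.74, 6.22, 5.49, 6.13, 7.24 and 7.15 in the same order. The median −log10 q went the other way, from 14.4 to 25.7 over the libraries for the members and from 18.4 to 32.4 for the others. So the members were of average height over background and of below average significance.

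Width and strength moved together. In steps of 25 percentile points, from weak to strong, the median width of the members was 632, 783, 998 and 1118.5 bp. For the others it was 607, 733, 969 and 1262 bp, so the members were slightly wider in the 3 lower steps and narrower in the top one. The summit of the strongest peak wandered between libraries by a median of 86 bp for the members, beside 69 bp for the others, and stayed within 100 bp for 2551 members (57.2%, beside 65.5%). It moved by over 500 bp in 169 members. Weak members wandered more, with a median of 121 bp in the lowest step and 58 bp in the highest.

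**Figure D2:**
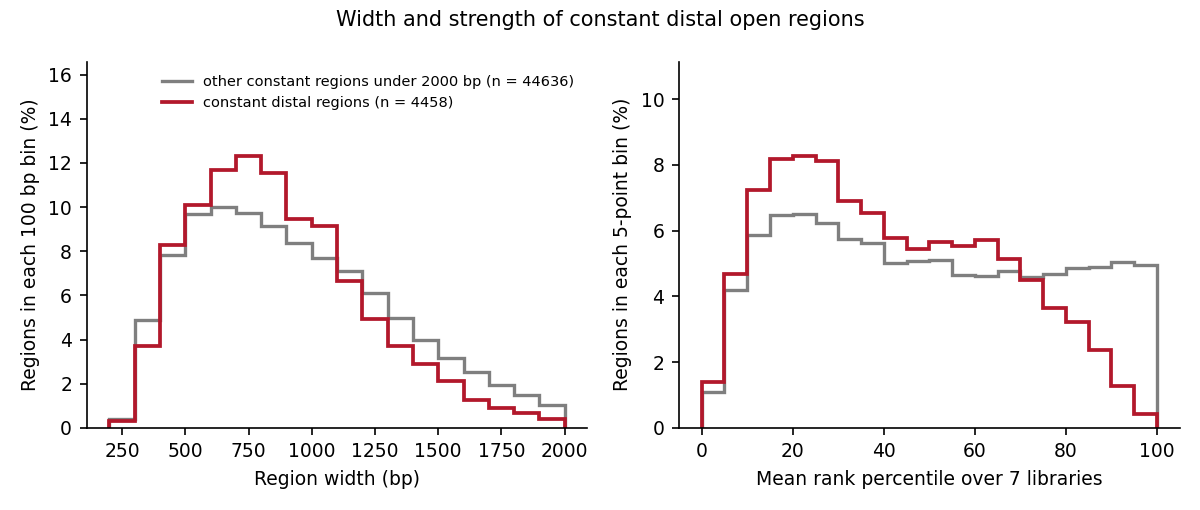
Left, region width in bins of 100 bp; right, mean rank percentile over the 7 libraries in bins of 5 points; the y axes give the share of regions in each bin for the 4458 constant distal regions (red) and the 44636 other constant regions under 2000 bp (grey). The red curve is higher around the median width of 831 bp and falls off toward the right in strength, where 1.70% of the members and 10.001% of the others are over 90.

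The genes flanking the strongest members were of varied function. The first, chr3:5860239-5860767 in a desert between Pex2, a peroxisome assembly factor, and 1700008P02Rik, was at percentile 99.999 in each of the 7 libraries with a fold of 21.3 to 25.6. The second, chr17:39846571-39847848, lies in the pseudogene Rn18s-rs5, a copy of ribosomal RNA, and was at 99.965 or above in each library. Copies of ribosomal RNA are near identical, so the authors' alignment could have split or joined their reads, and its rank is uncertain. The third, chr15:85634296-85635372 within the lncRNA D130051D11Rik, lies 52.9 kb from Wnt7b, a Wnt ligand, and 100.2 kb from Ppara, a regulator of fatty acid oxidation. Its percentiles were 99.72 to 99.98 in Syn and 99.80 to 99.99 in Allo.

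The next in strength ranked in the top few percent of each library. The region at chr14:23114462-23115391, 59.0 kb from Lrmda, reached a mean of 99.3, and chr12:29290368-29291629 between Eipr1 and Myt1l, a neuronal zinc finger factor, one of 99.2. The region at chr4:97465612-97466658, 112 kb from Nfia, a transcription factor, followed at 99.0. The BC002059 promoter region, chr17:16951002-16951956, was at 96.7, 99.5 and 96.7 in Syn and at 97.3, 98.0, 99.9 and 97.0 in Allo. Its flanking gene on 1 side is Rgmb, a BMP co-receptor used as a stem cell gene here, but 1120 kb away. The others of the strongest 12 lie 61.5 to 187 kb from Sertad2 (mean 97.3), Cd83 (97.2), Ogfrl1 (97.0), 9530057J20Rik (96.6) and Foxp1 (96.3), a forkhead factor. None of the 12 differed between the groups by the test described further on.

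The weakest members were still called in every library. At chr1:155499712-155500274 between Xpr1 and Acbd6 the percentiles ran from 0.0785 to 3.64, with folds of 2.75 to 3.97. At chr11:114452977-114453487 between Sdk2 and Rpl38, and at chr4:3083205-3083725 near Vmn1r2, a vomeronasal receptor gene, the mean percentiles were 1.05 and 1.68.

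At the limits of the rule the values ran on without a visible step. The 3 members nearest to a gene lay 50005, 50012 and 50013 bases from Abcd3, Dlk1 and Mn1, with mean percentiles of 58.3, 44.5 and 34.0. The 3 constant regions just too near lay 49997, 49979 and 49969 bases from Gm38664, Slc38a2 and Tsc22d2, with means of 68.2, 69.4 and 13.1. The 3 widest members measured 1997, 1997 and 1994 bp (means 64.7, 61.0 and 69.3), and the 3 narrowest of the 50 distal constant regions left out for width measured 2026, 2032 and 2041 bp (means 34.4, 64.6 and 73.3).

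The members at lncRNA starts were stronger than the rest. The 89 had a median percentile of 56.5, beside 38.6 for the other members, and 22 of them (24.7%) were over 75, beside 10.7%. After BC002059 came the regions at Gm41301 (mean 93.5), which lies 97.0 kb from Grhl2, an epithelial transcription factor, at Firre (93.2), an X-linked RNA that shapes nuclear architecture, and at Gm26901 (93.1), Gm34507 (92.6) and Gm4258 (91.4). Dubr (89.8) and Junos (89.2) followed. Junos is a lncRNA gene beside the AP-1 gene Jun, but the member at its window lies 91.6 kb from Jun. For the Dubr start the percentiles were 85.3, 90.3 and 86.5 in Syn and 92.0, 90.1, 91.9 and 92.6 in Allo, and for Junos 94.8, 87.9 and 92.7 in Syn and 85.6, 87.7, 90.7 and 84.8 in Allo. The groups overlapped at both, and limma's adjusted p was 0.382 and 0.435. Among these strong windows that of Gm34507 was rich in GC boxes and that of Junos had none of the motifs, as printed above.

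The bodies of lncRNA genes held many more members than their starts. There were 1113 (24.97%) inside a lncRNA body, beside 9.65% of the other constant regions under 2000 bp, most of which lie in or near protein-coding genes. The median percentile was 40.4 inside and 38.4 for the members outside lncRNA bodies. Lncpint, a p53-responsive transcript, held 19. The RNAs 2610035D17Rik beside Sox9, A930011G23Rik, and Pvt1 beside Myc held 16 each. Morrbid, a regulator of Bcl2l11, held 10, and Zmiz1os1 held 8. The T cell receptor loci Tcra and Tcrd, which RefSeq does not class as protein-coding and which overlap each other, held 11 and 8. At the other end, 794 members (17.8%) were over 50 kb from any RefSeq gene of any class.

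Most members were far out, but few were extremely so. The median distance to the nearest protein-coding gene was 105.1 kb and the largest 2138 kb. There were 2098 members at 50 to 100 kb, 1433 at 100 to 200 kb, 796 at 200 to 500 kb and 131 beyond 500 kb, of which 20 were beyond 1 Mb. Being far away went with being less often constant. Of the 11669 merged regions under 2000 bp beyond 50 kb from a gene, 38.2% had a peak in all 7 libraries, beside 49.1% of the 90909 nearer ones, and 2435 (20.9%) were found in 1 library.

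The members were spread unevenly over the gene-free part of the genome. Between protein-coding genes 2768 gaps were longer than 100 kb, the least that can hold a member, and 1121 of them held at least 1. A gap of 100 to 250 kb held 13.3 members per Mb of sequence over 50 kb from a gene. That density was 9.36 in gaps of 250 to 500 kb, 4.92 in gaps of 500 kb to 1 Mb and 1.69 in longer ones. The share of gaps with a member rose in the same order, 29.7%, 48.8%, 55.3% and 60.5%. Longer deserts were thus more often occupied and more sparsely so.

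**Figure D3:**
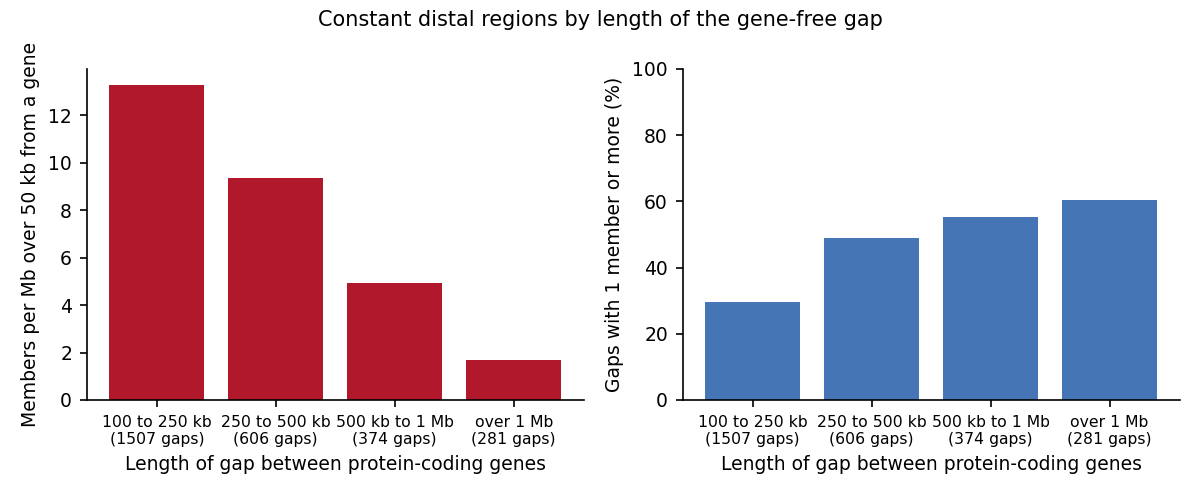
Left, members per Mb of sequence over 50 kb from a protein-coding gene (y axis, linear from 0) and right, share of gaps with at least 1 member, for gaps between protein-coding genes grouped by length (x axis). Density falls from 13.3 to 1.69 per Mb while occupancy rises from 29.7% to 60.5%.

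Deserts, taken as gaps over 500 kb, numbered 655 and held 1915 members (43.0%), but 278 of them held none, and 111 of the empty ones were over 1 Mb. A small part of the gaps carried the set: 179 gaps (6.47%) held 50% of the members, and 106 gaps with 10 or more held 1639 (36.8%). None of the 44 gaps between pairs of olfactory or vomeronasal receptor genes held a member, beside 40.5% of all gaps, though those 44 offered only 2.35 Mb of sequence far enough from a gene. By chromosome, the density was highest on chromosomes 13 (8.09 per Mb, 369 members) and 10 (7.20) and lowest on X (1.24). On chromosome 13 the members were 16.6% of the constant regions under 2000 bp and on chromosome 7 they were 4.11%.

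Neighbouring members stood close together. The median distance to the next member was 10.6 kb. Another member lay within 50 kb for 3489 (78.3%) and within 10 kb for 2146 (48.1%). Chains of members no more than 50 kb apart formed 864 clusters, of which 219 had 5 or more members (1819 in all, 40.8%) and 54 had 10 or more. The other 969 members stood alone. The median percentile was 39.2 for single members and 39.2 for those in clusters of 5 or more.

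The 6 gaps with most members lie on chromosomes 13, 5, 6, 14 and 11. Between Cd83, an immune surface protein, and Jarid2, a partner of Polycomb complex PRC2, 31 members lay in 928 kb of chromosome 13. Between Tbc1d1, a regulator of glucose transport, and Gm38457 on chromosome 5 there were 30 in 451 kb. Klf14 and Mkln1 on chromosome 6 enclosed 29 in 440 kb, of which 19 lie in Lncpint. Klf5, a factor of proliferating crypt cells, and Klf12 on chromosome 14 enclosed 28 in 553 kb, 11 of them in the RNA Gm34061. Sox9, a factor of crypt base cells, and Slc39a11 on chromosome 11 enclosed 26 in 457 kb, 16 of them in 2610035D17Rik. Med13l, a Mediator subunit, and Tbx3, a T-box factor, on chromosome 5 enclosed 25 in 905 kb. The densest of the next 6 was the gap between Dyrk2 and Cand1 on chromosome 10, with 23 members at 109.8 per Mb.

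These gaps differed in the make-up of their members. The median percentile was 55.4 between Tbc1d1 and Gm38457 and 31.8 between Med13l and Tbx3. The members between Klf14 and Mkln1 were narrow, with a median of 557 bp, beside 945 bp between Klf5 and Klf12. In the gap beside Sox9 the strongest member, chr11:112909922-112911114, lies 123 kb from Sox9, with percentiles of 85.5, 93.3 and 90.8 in Syn and 86.7, 92.2, 84.1 and 78.6 in Allo. In the desert beside Klf5 the strongest, chr14:99624253-99625739, was at 90.6, 87.1 and 85.3 in Syn and 88.5, 88.01, 82.0 and 81.4 in Allo. Between Med13l and Tbx3 the strongest, chr5:118984365-118985802, was at 93.8, 92.0 and 87.6 in Syn and 90.5, 89.7, 96.1 and 93.8 in Allo. In each of the 3 the groups overlapped.

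**Figure D4:**
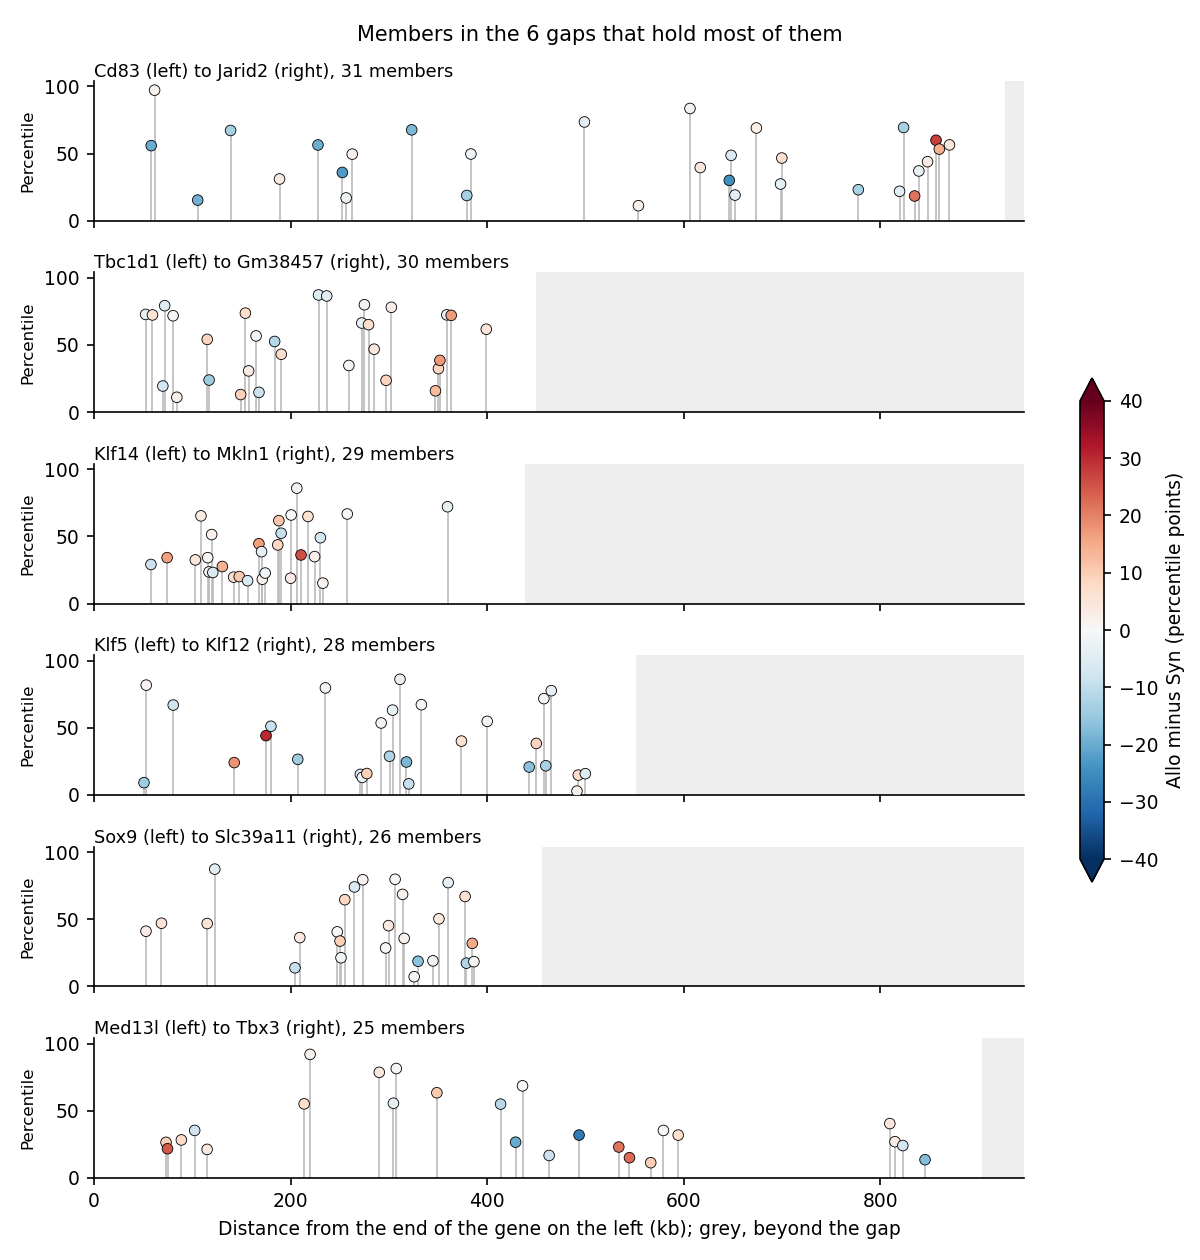
Each panel is 1 of the 6 gaps with most members; the x axis gives the distance of a member's summit from the end of the gene on the left (kb), the y axis its mean rank percentile over the 7 libraries, and the colour the Allo minus Syn difference in percentile points, with grey beyond the gap. Members crowd into parts of a gap, as between Klf14 and Mkln1.

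Over all protein-coding genes, 2042 (9.44%) were the flanking gene of at least 1 member, and 225 flanked 10 or more. Of the genes that border a gap long enough to hold a member, 45.1% flanked one. Myc, the proliferation factor and Wnt target, flanked the most, 43, followed by Med13l (36) and Sox9 (35). Of 34 intestinal epithelial transcription factors 14 flanked a member: Sox9 35, Klf5 28, Maf 27, Gata6 21, Klf4 17 and Foxa2 11 were the leading ones. They were 14 of the 17 factors of that list that border a long gap.

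In the other lists the number of genes that border a long gap set the upper limit. Of 22 intestinal stem cell genes 9 did and 7 flanked a member, among them Lrig1, a brake on growth factor receptors, with 18, Rgmb with 13, Ephb3, which positions crypt cells, with 9, and Axin2 with 7. Of 37 Wnt pathway genes 11 flanked a member, with Ctnnb1 (11), Lef1 (9) and Ccnd1 (8) after Myc. Of 39 Notch, BMP and Hedgehog genes 16 did, led by the Notch target Hes1 (23), the BMP target Id2 (19) and the ligands Bmp2 (10) and Bmp4 (8). Of 25 genes of secretory and tuft cell fate 7 did, with Isl1 at 11 and Atoh1, which sets secretory fate, at 5.

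Genes of other tissues flanked members too. Of 95 developmental transcription factors 55 did, as did 43 of 77 neural adhesion and synapse genes, but 82 and 71 of these border a long gap. Klf12 (29), Tbx3 (25) and Runx1 (20) led the first list and Cdh20 (11) and Epha4 (10) the second. Of 37 immediate early and damage response genes 9 flanked a member, with Jun at 19 and Bcl2l11, a promoter of apoptosis, at 16. Of 48 genes of interferon response and antigen presentation 4 did (8.33%, beside 9.44% of all protein-coding genes): Irf8 with 7, Ifngr1 with 4, and Gbp6 and Il7 with 1 each. Only 7 of these 48 border a long gap. A flanking gene is a neighbour on the map and need not be a target of the region.

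Whether the stem cells of Allo and Syn recipients differed at these regions was asked of the rank percentile. The rule used presence in all 7 libraries and the highest rank of a region, but not the difference between the groups. Each region's ranks were fitted with limma over all 50324 constant regions, with Benjamini-Hochberg adjustment at 0.05. Lower in Allo were 97 members (2.18%, beside 1.00% of all constant regions), and 50 were higher (1.12%, beside 0.847%). The median difference of the members was −2.15 percentile points, beside 0.15 over all constant regions. The calls rested on few libraries: without Syn 1, Syn 2 or Syn 3 the lower calls numbered 5, 13 and 5 and the higher calls 4, 8 and 1. Over all constant regions they then numbered 27, 62 and 15 lower and 31, 59 and 19 higher. Without Allo 1, 2, 3 or 4 the lower calls numbered 18, 261, 27 and 16 and the higher calls 16, 110, 23 and 15. Over all constant regions these were 68, 1405, 130 and 71 lower and 92, 1052, 166 and 102 higher. Without Allo 3 and 4 together, 0 members were called by limma in either direction. At an unadjusted p under 0.05 in that fit, 627 members were lower (14.1%, beside 8.15% of all constant regions). Those higher numbered 401 (8.995%, beside 8.304%). Ranked by fold, 16 were called lower and 15 higher, beside 64 and 77 of all constant regions. With ranks on a logit scale the balance turned over, to 17 lower and 33 higher. It turned over among all constant regions too, to 103 lower and 252 higher. At an unadjusted p under 0.05, 727 members were lower (16.3%, beside 8.73% of all constant regions) and 387 higher (8.68%, beside 8.71%).

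A count that needs no model leaned toward lower ranks in Allo. In 686 members (15.4%) every Allo library ranked the region below every Syn library, beside 8.86% of all constant regions. The reverse held for 310 (6.95%), beside 8.41%. By fold the counts were 389 below (8.73%, beside 6.07%) and 282 above (6.33%, beside 5.78%), so the lean was smaller by that measure. With Allo 1 and 2 as the Allo libraries, 22.7% of the members lay below, beside 16.2% of all constant regions, and 15.6% above, beside 17.1%. With Allo 3 and 4 the shares were 32.9% beside 22.8%, and 16.5% beside 22.3%. Leaving out Allo 2 alone raised the counts to 1047 below (23.5%, beside 14.3% of all constant regions) and 475 above (10.7%, beside 13.8%). Leaving out Syn 1 or Syn 2 raised those above to 477 (10.7%, beside 12.4%) and 474 (10.6%, beside 12.95%). Each such step leaves fewer values to overlap. The background pileup separated the groups too, lower in Allo, and its part in the lean was not tested.

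By −log10 q the lean was larger farther from genes. Every Allo library ranked the region below every Syn library in 13.9% of the members at 50 to 100 kb, 14.4% at 100 to 200 kb, 19.3% at 200 to 500 kb and 26.7% of the 131 beyond 500 kb. For the other constant regions the share was 8.53% inside a gene body, 3.82% within 1 kb outside a gene, 8.99% at 1 to 10 kb and 10.6% at 10 to 50 kb. The opposite order showed little trend, from 6.70% to 9.16% over the 4 distances of the members. By fold the share below was 8.01%, 8.65%, 10.3% and 11.5% over the same distances and the share above 5.77%, 6.70%, 6.66% and 9.16%. By that count both shares were highest beyond 500 kb and the gap between them did not widen steadily. The median difference was −1.21, −2.29, −3.70 and −7.69 points from the nearest to the farthest members, and by fold −0.25, −0.65, −1.42 and −2.24. It fell in the same order with Allo 1 and 2 alone (−1.02 to −3.63) and with Allo 3 and 4 alone (−1.75 to −9.56). In the members beyond 500 kb the median percentile was 54.6, 57.5 and 56.9 in Syn and 47.9, 55.0, 43.2 and 44.6 in Allo. Among the 4 distances this was the one at which the Syn medians were over 50, and Allo 2 lay within the Syn range.

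**Figure D5:**
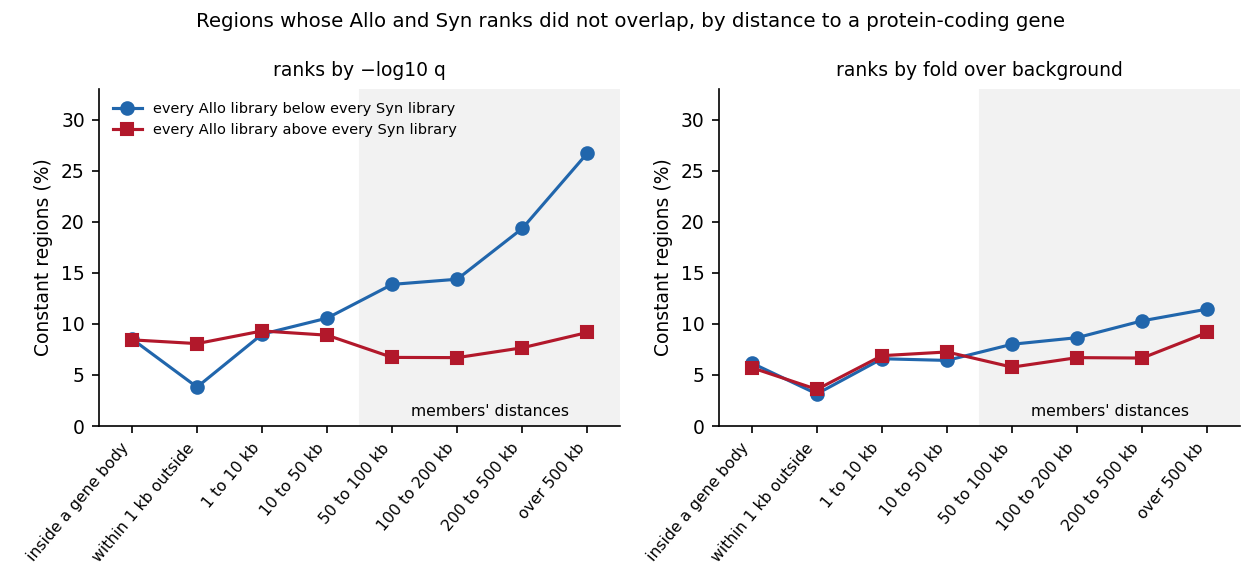
Share of constant regions (y axis) in which every Allo library ranked below (blue) or above (red) every Syn library, by distance to the nearest protein-coding gene (x axis), with ranks by −log10 q on the left and by fold on the right; shading marks the distances of the members. On the left the blue line reaches 26.7% beyond 500 kb while the red one stays under 10%, and on the right blue reaches 11.5% and red 9.16%.

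The lean was not limited to weak members. In the same 4 steps of strength, from weak to strong, the share with every Allo library below was 12.1%, 18.1%, 15.5% and 15.8% for the members, and 8.38%, 10.5%, 8.34% and 5.87% for the other constant regions. The share above was 8.23%, 7.94%, 5.49% and 4.10% for the members, and 9.39%, 10.4%, 8.26% and 5.99% for the other constant regions. Members within lncRNA bodies had a median difference of −1.40 points and those outside −2.45. The 89 at lncRNA starts had one of −0.36, with 11 below and 9 above. Over all members 15.4% were below and 6.95% above, and over all constant regions 8.86% and 8.41%.

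The 97 members called lower were scattered: they lay in 89 gaps, no more than 3 in any, and 53 were in deserts, which held 43.0% of all members. The median difference was −30.7 points. All 97 were lower by fold as well, but fold is a value of the same peaks and gives no separate support. The first, chr3:52454651-52455660, lies 105.1 kb from Foxo1, a forkhead factor of insulin and stress signalling. It was at percentile 54.8, 51.7 and 53.9 in the Syn libraries and 7.75, 12.0, 9.08 and 15.1 in the Allo libraries, a difference of −42.5 points (SE 2.67, limma adjusted p = 0.00512). Every Allo value lay far under every Syn value. The second, chr15:11757849-11758534, 81.7 kb from Npr3, the clearance receptor of natriuretic peptides, was at 46.3, 40.5 and 53.1 in Syn and 3.17, 4.15, 1.72 and 2.65 in Allo. Its peaks were narrower too, by 0.84 on the log2 scale (limma adjusted p = 0.0407). Width, like fold, is a value of the same peaks and moved with strength, so a width difference at a call gives no separate support. Most of the named calls were not called by width, the first lower one among them (limma adjusted p = 0.244).

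The widest difference among the named lower calls was in 1 of the remotest members. The region at chr15:46532713-46533505, 1048 kb from Csmd3 and 1417 kb from Kcnv1, was at 79.1, 75.8 and 66.9 in Syn and 12.9, 28.1, 9.88 and 18.9 in Allo (difference −56.5, SE 5.18, limma adjusted p = 0.0107). At chr6:54763608-54764475 between Mturn and Znrf2 the Syn values of 52.8, 37.8 and 44.7 stood against 3.96, 4.47, 0.951 and 1.41 in Allo. That region's peaks were narrower in Allo by 1.47 on the log2 scale (adjusted p = 0.013). At chr9:92856045-92857074, 248 kb from Plod2, a collagen-modifying enzyme, the Syn values were 41.6, 38.4 and 44.3 and the Allo values 0.772, 9.15, 5.45 and 4.90. The groups did not overlap at any of these regions, as at all 97 lower calls, which were selected for their difference.

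The other named lower calls had the same form. The nearest protein-coding gene was Fam43a at 144 kb, Mbnl1 (a splicing regulator) at 63.8 kb and Zfp365 at 100 kb. For the rest it was Osr1 (a developmental zinc finger factor) at 302 kb and Ccdc54 at 163 kb. Their adjusted p by limma ran from 0.010 to 0.0142. Near Zfp365, at chr10:67785329-67786151, the Syn values were 48.3, 44.3 and 59.3 and the Allo values 0.798, 11.2, 0.301 and 0.518, so Allo 2 stood apart from the other Allo libraries. Near Ccdc54, at chr16:50753305-50754008, the Syn values were 51.2, 47.4 and 58.9, and Allo 1 at 22.2 stood above Allo 2, 3 and 4 at 11.4, 11.6 and 12.7. The start of Dubr lies in the same gap and had overlapping groups.

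The 50 members called higher were also scattered, over 46 gaps with no more than 2 in any. Of these 50, 25 were in deserts, which held 43.0% of all members. Their median difference was 30.5 points. All 50 were higher by fold, again a value of the same peaks, as is their width. The first, chr14:25258185-25258934, lies within Zmiz1os1, 199 kb from Zmiz1, a transcriptional co-regulator. It was at 3.84, 1.89 and 1.01 in Syn and 38.3, 40.6, 41.7 and 46.9 in Allo (difference 39.6, SE 2.78, limma adjusted p = 0.00637), and its peaks were wider by 1.25 on the log2 scale (adjusted p = 0.0132). The second, chr9:63884931-63885493, lies between Smad3, which carries TGF-beta signals, and Smad6, which restrains BMP signals. It was at 5.14, 1.14 and 0.567 in Syn and 52.0, 44.3, 61.3 and 52.9 in Allo (difference 50.4, SE 4.15, limma adjusted p = 0.00866). Both rose from the bottom of the Syn lists to the middle of the Allo lists.

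Other regions that rose ranked low or in the middle of the Syn lists. Within Morrbid, 241 kb from Bcl2l11, the region chr2:128403177-128403869 was at 6.42, 2.52 and 8.96 in Syn and 32.03, 42.5, 42.6 and 42.3 in Allo, with Allo 1 the lowest of the Allo libraries. At chr10:19068179-19069077, 53.2 kb from Tnfaip3, an inhibitor of NF-kappa-B signalling, the Syn values were 33.3, 44.3 and 36.6 and the Allo values 69.8, 81.1, 74.5 and 76.7. It was the strongest in Allo of the 10 higher calls with the lowest adjusted p. Between Pdgfra and Kit, both receptor tyrosine kinases, chr5:75446124-75447104 was at 4.32, 15.0 and 7.01 in Syn and 43.1, 48.3, 45.9 and 39.4 in Allo. Within Lncpint, chr6:31169369-31169834 was at 23.8, 19.4 and 21.2 in Syn and 43.0, 47.2, 48.2 and 50.5 in Allo.

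Further higher calls chosen by the same rule have Hand2 (342 kb away), Cdh26 (110 kb) and Hs3st1 (60.1 kb) as the nearest protein-coding gene. Over the 10, limma's adjusted p ran from 0.00637 to 0.0137. Of the 50 higher calls 22 lay in a lncRNA body and of the 97 lower calls 13, beside 24.97% of all members. This contrast was seen after the calls and not tested. Of the 20 calls chosen by the rule, 11 were also called by fold, and 4 were without Syn 3, which was the library whose absence cost most.

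Width told of fewer members. By limma on the covered width, centred on each library's median over all constant regions, 28 members (0.628%, beside 0.344%) were wider in Allo and 16 (0.359%, beside 0.187%) narrower. These calls also depended on single libraries. Without Syn 1, 2 or 3 there were 9, 10 and 7 wider and 3, 3 and 2 narrower. Over all constant regions these were 63, 62 and 63 wider and 18, 19 and 17 narrower. Without Allo 1, 2, 3 or 4 there were 17, 37, 9 and 10 wider members and 5, 48, 3 and 5 narrower. The same steps gave 99, 245, 55 and 74 wider and 46, 213, 39 and 43 narrower over all constant regions. Among the members, the narrower calls thus outnumbered the wider ones without Allo 2 and without Allo 1 and 2 together (35 narrower and 27 wider). Over all constant regions the latter gave 142 narrower and 186 wider. Without Allo 3 and 4 there were 0 of either by limma, with 329 wider and 373 narrower at an unadjusted p under 0.05. Over all 50324 constant regions, 3592 were wider and 2741 narrower at that p.

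Single gaps leaned either way, to be read beside the 15.4% of all members (8.86% of all constant regions) with every Allo library below and the 6.95% (8.41%) with every one above. Between Maf, a factor of enterocyte maturation, and Dynlrb2 on chromosome 8, 17 of 21 members had a lower Allo mean, and in 5 every Allo library lay below every Syn library and in 0 above. The median percentile there was 44.5, 44.3 and 41.5 in Syn and 38.7, 32.7, 35.9 and 25.3 in Allo, so the groups did not overlap. Between Prok2 and Rybp, a Polycomb component, 6 of 22 members had every Allo library above and 1 below, with medians of 24.6, 23.5 and 26.1 in Syn and 34.3, 34.7, 31.96 and 39.9 in Allo. These were picked out of the 12 fullest gaps after their values were seen. In the gap beside Sox9 the medians overlapped, at 38.1, 35.0 and 43.8 in Syn and 40.3, 45.8, 43.4 and 38.3 in Allo.

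Around 8 of the 9 gene lists the median difference had the sign of the whole set, and counts below and above are again to be read beside 15.4% and 6.95% of all members and 8.86% and 8.41% of all constant regions. The median difference was −5.79 points for the 102 members flanking Notch, BMP and Hedgehog genes, of which 18 had every Allo library below and 5 above. It was −6.69 beside Hes1, with 5 of 23 below and 0 above, and −15.7 beside Bmp4, with 4 of 8 below and 0 above. For the 178 members beside intestinal epithelial factors the median was −1.29, with 24 below and 12 above, and Maf alone gave 8 of the 24. Among the leading factors of that list Sox9, Foxa2 and Klf4 had 1.25, 1.57 and 0.19, and Klf5, Maf and Gata6 −2.16, −6.60 and −3.51. Beside Wnt pathway genes it was −2.06, beside stem cell genes −3.10 and beside neural adhesion genes −3.95. The members beside secretory and tuft cell genes had 0.46, and those beside Bcl2l11 6.53, with 3 of 16 above and 0 below. All these stand beside −2.15 for all members, and none of the lists was tested against the rest. Hes1, Bmp4 and Bcl2l11 are examples picked from their lists.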

How the data were processed

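Each of the 7 libraries was deposited as 1 list of peaks, called per library, on mm10. Trim Galore, Bowtie2, MACS2 and MACS3 are named in the submitters' processing notes, with neither versions nor roles, and the threshold for a peak is unknown. The authors deposited with each peak its score, its fold (linear ratio) over background, p and q as −log10, and a summit. These are each peak's own values and were used to rank within a list. Depth is unknown, since no read counts were analysed here, and precision cannot be given per value.

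Regions, members and gene distances were computed in Python 3.11.15 with numpy 2.4.6 and pandas 2.3.3. Genes were those of a RefSeq table of GRCm38.p6 (21631 protein-coding), and 414 of 421 gene list entries matched. A cluster is a chain of members no more than 50 kb apart. Allo and Syn ranks were compared with limma 3.58.1 (R 4.3.3) over all 50324 constant regions, and the fit was tested on simulated data. The labels do not say more than that the pools are independent, so p-values measure the spread between pools.

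Named regions are the 12 strongest and 3 weakest members, the 6 fullest gaps, up to 10 calls in each direction by adjusted p, and 3 regions on either side of each limit of the rule. From each gene list up to 6 genes are named, by members flanked. Some items that this rule or a marker list holds are not reported here. Members and lists were chosen with earlier results of these data known. The next 6 gaps, the shares by distance and the motif search in promoter windows were added after seeing the data. Alternatives were gene distances of 25 and 100 kb, a −log10 q of at least 5, windows of 501 bp at summits, no width limit, ranks by fold or on a logit scale, width without centring, a replicate block, and leaving out libraries. A genome sequence was not used here, so the planned search of the members' own sequence was not run.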

Additional observations from a re-analysis of the deposited data

Results flagged for a closer look

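Of 51 sets of 4 Allo values examined (library summaries, the fullest gaps and the named members), 5 had 1 library far from the other three, where chance flags about 1 in 20. All are rank percentiles of single members. At the region near Cd83 on chromosome 13, Allo 3 was at 99.3 and the others at 97.3, 97.5 and 97.5. At the region 82.2 kb from Foxp1, Allo 2 was at 99.6 and the others at 94.0, 94.6 and 94.9. At the region in Morrbid that was called higher, Allo 1 was at 32.03 and the others at 42.3, 42.5 and 42.6. At the region near Zfp365 that was called lower, Allo 2 was at 11.2 and the others at 0.301, 0.518 and 0.798. At the region near Ccdc54 that was called lower, Allo 1 was at 22.2 and the others at 11.4, 11.6 and 12.7.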

How the results depend on the processing

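The number of members was 7332 with a distance of 25 kb and 2360 with 100 kb, and the share in deserts 29.5% and 61.5%. It was 3955 to 5159 under the other settings, with 5000 when Allo 1 was left out. The mean library median percentile, 41.1, was 51.4 by fold and 40.8 to 41.6 with 1 library left out. The share with a neighbour within 50 kb, 78.3%, was 75.6% at a −log10 q of at least 5 and 78.5% to 79.8% with 1 library left out. The calls by rank, 97 lower and 50 higher, numbered 16 and 15 by fold, 17 and 33 on the logit scale, 73 and 37 at a −log10 q of at least 5, 0 and 0 without Allo 3 and 4, and 301 and 131 without Allo 1 and 2. Over all constant regions, 503 were called lower and 426 higher. In the same order of settings these became 64 and 77, 103 and 252, 370 and 317, 0 and 0, and 1710 and 1434. With 1 library left out, 5 to 261 members were lower (15 to 1405 of all constant regions) and 1 to 110 higher (19 to 1052). Members with every Allo rank below every Syn rank, 686, were 389 by fold, 1466 without Allo 1 and 2 and 776 to 1047 with 1 library left out. As shares these were 15.4%, 8.73%, 32.9% and 17.4% to 23.5%, beside 8.86%, 6.07%, 22.8% and 10.7% to 14.3% of all constant regions. Members with every Allo rank above, 310, were 695 without Allo 3 and 4, 734 without Allo 1 and 2 and 407 to 477 with 1 left out. As shares these were 6.95%, 15.6%, 16.5% and 9.13% to 10.7%, beside 8.41%, 17.1%, 22.3% and 10.5% to 13.8% of all constant regions. The 16 narrower and 28 wider members were 4 and 5 without centring, 0 and 0 without Allo 3 and 4, and 35 and 27 without Allo 1 and 2, and 2 to 48 and 7 to 37 with 1 left out. Over all constant regions the 94 narrower and 173 wider became 33 and 31, 0 and 0, 142 and 186, and 17 to 213 and 55 to 245. The median difference, −2.15, was −0.63 by fold and −1.89 to −2.54 with 1 left out. The cause of these changes was not tested, and leaving out libraries changes at once how many and which ones remain. Same-numbered Syn and Allo libraries deviated with correlations of 0.049, −0.040 and 0.054, and differently numbered ones with −0.064 to 0.048. With so few libraries, these values cannot decide whether the numbers mark pairs. With a replicate block limma called 0 members by rank in either direction and 0 by width in either direction. At an unadjusted p under 0.05 in that rank fit, 661 were lower (14.8%, beside 8.08% of all constant regions) and 352 higher (7.90%, beside 7.74%). No count of calls has a sign, but the balance between directions turned over for rank on the logit scale and for width without Allo 2 and without Allo 1 and 2, and the members lay above the others by fold and below them by −log10 q. On the logit scale the balance turned over among all constant regions too. Depth is unknown, which limits what a rank says of weak regions.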
